A study of Mus musculus with 21 samples.

Results

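Ngfr encodes p75NTR, the low-affinity neurotrophin receptor, and its mRNA was examined in conventional dendritic cells (cDCs) sorted from the thymus and spleen of C57BL/6 mice aged 6 to 8 weeks. It is 1 gene of the 37734 in the tables, and it was chosen because its normalized read count differed between the sorted populations. Its own levels are therefore given as a description, without a test, and tests are given for other genes only. The RNA-seq series held 21 libraries in 6 groups, named SP1Minus, TH1Minus, TH1Plus, SP2Minus, TH2Minus and TH2Plus after the tissue (SP, spleen; TH, thymus), the subset (1, cDC1; 2, cDC2) and the maturation gate. After enrichment on CD11c beads, cDC1s were sorted as CD24+ CD11b- CD11c+ cells lacking F4/80, Ly6g, Ly6c, DX5 and B220, and cDC2s as CD24- CD11b+ CD11c+ cells lacking B220, so that F4/80, Ly6g and Ly6c were gated out of the cDC1s and are not named in the cDC2 gate. For cDCs in general, the paper describes both subsets as lacking F4/80 and names F4/80 among the antibodies used in sorting. Immature cells were CCR7- Esam- and mature cells CCR7+ Esam+, and mature cells were taken from the thymus only. Tissues were pooled from several mice before sorting, so that each library is a pool and not an animal.

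p75NTR belongs to the tumor necrosis factor receptor family and carries a death domain in its cytoplasmic tail. It binds all mature neurotrophins, acts together with the Trk receptor tyrosine kinases, and binds the unprocessed proneurotrophins together with sortilin. It has no kinase of its own and signals through adaptors that dock on its tail, and it is cut in 2 steps, by a membrane metalloprotease and then by the γ-secretase complex. It is best known from neurons, Schwann cells and other neural crest derivatives, and in lymphoid organs it is also a marker of follicular dendritic cells. cDC1s are the cross-presenting subset of cDCs, cDC2s present antigen mainly on MHC class II, and in the thymus both subsets take part in presenting self-antigens to developing T cells.

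Ngfr (ENSMUSG00000000120) lies on the minus strand of mouse chromosome 11, from 95568818 to 95587735 (mm10, GENCODE M21). It spans 18918 bp in 6 exons, which together cover 3446 bp, and no other annotated gene overlaps it, so that its reads are not shared with an overlapping or antisense gene. The sequence just upstream of the annotated transcript is shown to give the promoter whose activity in cDCs the read counts reflect only indirectly. It is the minus strand of chr11:95587736-95587948 (RefSeq promoter table, GRCm38.p6), with each match to the GC box (GGGCGG, searched on both strands) in capitals.
Ngfr promoter: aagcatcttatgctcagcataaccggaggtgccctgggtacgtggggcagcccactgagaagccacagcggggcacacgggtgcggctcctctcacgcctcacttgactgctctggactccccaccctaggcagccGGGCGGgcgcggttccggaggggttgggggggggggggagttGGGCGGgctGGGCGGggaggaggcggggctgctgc
This window of 213 bases ends next to the GENCODE start, and the RefSeq start lies further downstream, at 95587698. All promoters were read over the same bases relative to their RefSeq start, without the bases next to it. The shares below are thus not for sequence directly upstream of a start. The window is GC-rich, at 70.89% GC against a median of 51.64% over 32851 promoters. Of those promoters, 92.27% had a lower GC content. The Ngfr window holds 14 CpG dinucleotides, where the median promoter holds 4. The GC box occurred 3 times, and 27.4% of promoters held at least 1. On either strand there was no match to CCAAT, which 30.2% of promoters held, to TATAAA, which 9.67% held, or to the 4 other motifs searched, TGANTCA (AP-1), GAGGAAGT (PU.1), GGAA and GAAA 2 bases apart (ETS-IRF composite) and TTC and GAA 4 bases apart (STAT), which 1.93% to 5.92% of promoters held.

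The libraries held 14266867 to 40119669 reads counted on genes. Libraries 4 and 5 of splenic cDC1 carried the same pool, index and lane and their counts differed far less (chi-square over its degrees of freedom, 2.44) than those of the other 9 pairs of that group (24.99 to 176.4), so they were counted as 1 sample, their mean, which leaves 20 samples. Replicate 1 of that group carried the same pool number, so that its 4 samples came from 3 numbered pools. Libraries 3 and 4 of immature thymic cDC1 also carried the same pool, index and lane. Their counts differed more (92.77) than those of the other pairs of their group (22.83 to 86.12), so they were kept as 2 samples. Summed markers were read for the sorted identities. Summed cDC2 markers (Sirpa, Itgam, Irf4, Cd209a, Mgl2, Clec10a and Cd4) reached 64908 to 66912 normalized reads in immature thymic cDC2 and 646 to 1095 in immature thymic cDC1. Summed mature DC markers, among them Ccr7 and Fscn1, were at 387810 to 529270 in mature thymic cDC2 against 22068 to 32236 in the immature cells. The cDC2 markers summed to 14595 to 19733 in mature thymic cDC2, against 2470 to 3779 in mature thymic cDC1. The cDC1 markers, among them Irf8, summed to 14331 to 22462 in mature thymic cDC2 and to 40531 to 44177 in mature thymic cDC1. In mature thymic cDC2 the sums of both lists thus overlapped.

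Ngfr mRNA was abundant in a single population, immature thymic cDC2. The 3 TH2Minus samples had 817, 830.3 and 1246 normalized reads of Ngfr, which came from 765, 1240 and 800 reads. All 3 lay above every sample of the other groups, of which the highest was a thymic cDC1 sample at 61.7. The mean was 964 ± 244 normalized reads (SD, n = 3), or 279.8 per kb of exon, and 36.9 to 56.1 CPM.

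In splenic cDC2, the same subset in the other tissue, Ngfr was low. The 3 SP2Minus samples had 18.3, 7.497 and 9.78 normalized reads, from 20, 12 and 6 reads. The mean of 11.9 ± 5.70 (SD, n = 3) was 81.3-fold below that of immature thymic cDC2, and the lowest thymic sample was at 817 where the highest splenic sample was at 18.3. On the log2(value + 1) scale the difference between tissues was 6.29.

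Mature thymic cDC2 carried little Ngfr. The 3 TH2Plus samples had 31.5, 43.2 and 20.4 normalized reads, from 41, 62 and 26 reads, with a mean of 31.7 ± 11.4 (SD, n = 3). This mean was 30.4-fold below that of their immature counterparts, and the values did not overlap (at most 43.2 against at least 817). They also lay just above splenic cDC2, at 20.4 or more against 18.3 or less, with a ratio of means of 2.67. The difference of mature from immature cells was -4.92 on the log2(value + 1) scale.

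In cDC1s Ngfr was low in both tissues and undetected after maturation. The 4 immature thymic cDC1 samples had 61.7, 16.7, 21.8 and 21.2 normalized reads, from 73, 20, 14 and 21 reads, with a mean of 30.3 ± 21.01 (SD, n = 4). Replicate 1 stood apart from the other 3 samples of its group, which ranged from 16.7 to 21.8. Splenic cDC1 samples had 13.4, 2.96, 11.1 and 7.72 normalized reads, a mean of 8.79 ± 4.53 (SD, n = 4), and the last of these is the mean of the 2 libraries counted as 1 sample, at 3.82 and 11.6.

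No read of Ngfr was counted in any of the 3 mature thymic cDC1 libraries. At 0 reads the counts still allow up to 3 reads a library, which is 5.53, 5.20 and 2.40 normalized reads, and these floors cover counting error only. Against the highest of these floors, the Ngfr mean was at least 174-fold higher in immature thymic cDC2, at least 5.73-fold higher in mature thymic cDC2 and at least 5.49-fold higher in immature thymic cDC1, or 3.60-fold without replicate 1 of the latter. For splenic cells the same bounds were 2.14 in cDC2 and 1.59 in cDC1.

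**Figure D1:**
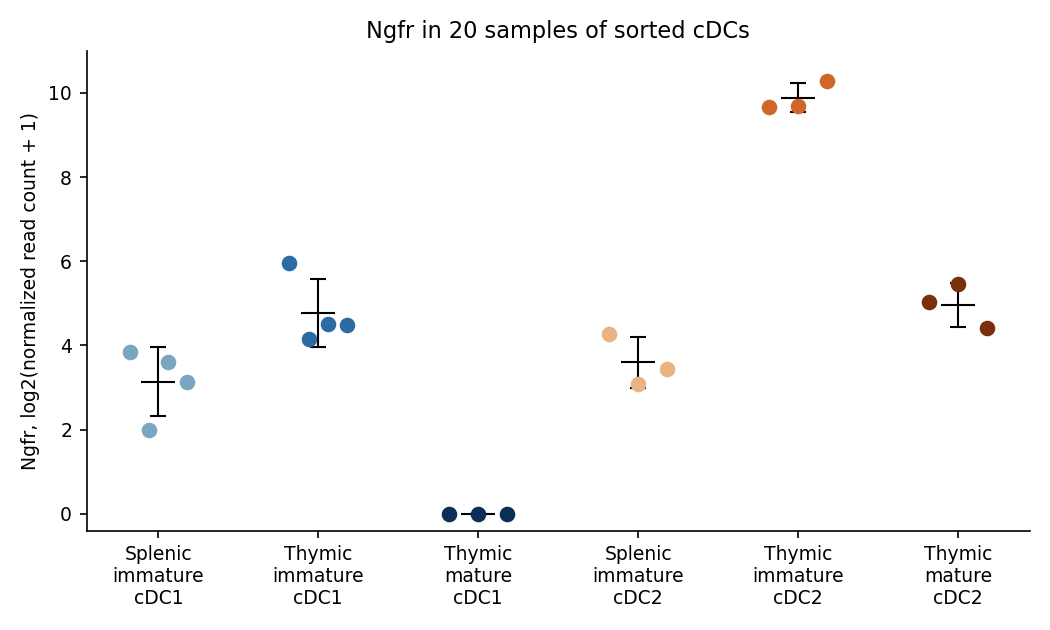
Ngfr in each of the 20 samples, as log2(normalized read count + 1) on the y axis, by sorted population on the x axis. Each point is a sample, the long tick is the group mean of the log2 values and the bars are ± 1 SD of them; the 3 immature thymic cDC2 samples (817 to 1246 normalized reads) lie above all others, and the 3 mature thymic cDC1 samples lie at 0.

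From high to low, the order of the group means was immature thymic cDC2 (964), mature thymic cDC2 (31.7), immature thymic cDC1 (30.3), splenic cDC2 (11.9), splenic cDC1 (8.79) and mature thymic cDC1 (0). The first step in this order, 30.4-fold, was free of overlap. Mature thymic cDC2 and immature thymic cDC1 overlapped and differed 1.04-fold in their means. Immature thymic cDC1 and splenic cDC2 overlapped as well, at 16.7 to 61.7 against 7.497 to 18.3. Splenic cDC2 and splenic cDC1 overlapped with a ratio of 1.35. The comparison of thymic with splenic cells could be read in both immature subsets: within cDC1 the thymic mean was 3.45-fold above the splenic one, with 16.7 as the lowest thymic and 13.4 as the highest splenic value, and within cDC2 it was 81.3-fold above. Without immature thymic cDC1 replicate 1 the mean of that group was 19.9, which is 2.27-fold the splenic cDC1 mean, and immature thymic cDC2 was then 48.4-fold above it in place of 31.8-fold. Whether the tissue difference is larger in one subset than in the other was not tested, since the gene was chosen on these values.

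The libraries were run on lanes 5 and 8. The single TH2Minus sample of lane 5 had 817 normalized reads of Ngfr and the 2 of lane 8 had 830.3 and 1246, so that the high level stood in both lanes. Splenic cDC2 had 7.497 and 18.3 in lane 5 and 9.78 in lane 8. For immature thymic cDC1 the high replicate 1 was the only sample of lane 5, and lane and sample cannot be told apart there. All mature samples came from lane 8.

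Levels of other cell types' genes were read beside Ngfr. In these sorted bulk samples, a smaller share of expressing cells and less RNA per cell cannot be told apart. Of the 8 Schwann cell and glial markers, Sox10, S100b, Cdh19 and Foxd3 were at 0 in all 3 immature thymic cDC2 samples, and the summed list, which is nearly all Mbp, was lower there (1437 to 1772 normalized reads) than in the other 5 groups (2630 to 14301). Of the 7 neuronal markers, Th, Dbh and Phox2a were at 0 in immature thymic cDC2. The sum there, mostly Tubb3, was 93.9 to 112, against 21.9 to 62.2 in splenic and 55.7 to 125 in mature thymic cDC2. Tubb3 had means of 86.9 in immature thymic, 35.3 in splenic and 35.2 in mature thymic cDC2, and 77.9 in immature thymic cDC1. In mature thymic cDC1, where Ngfr was at 0, the neuronal sum was 2985 to 3270 and Prph made up most of it. The 8 fibroblast and pericyte markers summed to 13.9 to 26.8 normalized reads in immature thymic cDC2, with Col1a1 and Col1a2 at 0.

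Of the 6 follicular dendritic cell markers, Cr2, Cxcl13 and Madcam1 were at 0 in immature thymic cDC2. The sum of 983 to 1671, against 385 to 541 in splenic cDC2, was carried by Mfge8. Its mean was 1222 in immature thymic cDC2, against 253 in splenic cDC2, 131 in splenic cDC1 and 176 in immature thymic cDC1. Mfge8 was higher still in both mature groups, at means of 5083 in cDC1 and 2964 in cDC2. B cell markers summed to 170.1 to 239.9 and T cell markers to 76.9 to 182 in immature thymic cDC2. In splenic cDC2, B cell markers were higher (599.7 to 636.9) and T cell markers lower (21.2 to 72.3). Both lists were higher in mature thymic cDC2 (251 to 402 and 569.7 to 1011), where Ngfr was lower.

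Other lists moved with Ngfr in part. Monocyte markers, mainly the chemokine receptor Ccr2, summed to 11648 to 14423 normalized reads in immature thymic cDC2. The sums were 3696 to 4069 in splenic cDC2, 544 to 1815 in mature thymic cDC2, 1348 to 2338 in immature thymic cDC1 and 111 to 278 in mature thymic cDC1. Csf3r of that list was lower in immature thymic than in splenic cDC2, at means of 403 and 1312. Fn1 and Ly6c2 were higher, at 878 against 111 and 249 against 34.3, but Ly6c2 was at 264 in immature thymic cDC1. Of the 6 markers, 4 were at 10 or more in every immature thymic cDC2 sample, and S100a8 and S100a9 had means of 1.3 and 3.1. All 7 macrophage markers were detected there at 10 or more, and their sum (10560 to 15126) overlapped that of splenic cDC2 (11141 to 14625). In splenic cDC2 that sum was mainly Cd68 and Adgre1, at means of 7076 and 4534. Both were lower in immature thymic cDC2, at 4686.5 and 1874, where C1qa and C1qb each exceeded Adgre1. The other 5 were higher in the thymus as Ngfr was: C1qa had means of 2289 against 359.8, C1qb 2539 against 443.5, C1qc 1541 against 285, Fcgr1 312 against 93.0 and Mertk 148 against 63.5. In mature thymic cDC2, where Ngfr was low, C1qa, C1qb and C1qc had means of 3058, 3354 and 2562. Plasmacytoid DC markers summed to 11994 to 13593, above splenic cDC2 (5524 to 5676) but overlapping mature thymic cDC2 (11264 to 15067), in which Spib and Bst2 were higher. Siglech and Tcf4 of that list were highest in immature thymic cDC2 among all 6 groups, and Ccr9 among the cDC2 groups only. Means in splenic, immature thymic and mature thymic cDC2 were 86.4, 888.5 and 38.2 for Siglech and 2486, 5899 and 2062 for Tcf4. For Ccr9 they were 149, 632 and 283. In immature cDC1, Ccr9 was higher than in any cDC2 group, at means of 897 in the spleen and 933 in the thymus. Siglech had means of 301 and 414 there, and Tcf4 had 1478 and 1227.5. The thymic epithelium list, at 3507 to 3877, was mostly Epcam, with Foxn1 at a mean of 5.3. Epcam moved with Ngfr, at means of 108 in splenic cDC2, 3517 in immature thymic cDC2 and 385 in mature thymic cDC2. The sum was nonetheless 3817 to 4878 in mature thymic cDC2, carried by Aire (mean 3408, against 43.4 in the immature cells). The part of monocytes or other cells in the Ngfr level was not tested.

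Within mature thymic cDC2, replicate 3 had the lowest Ngfr (20.4) together with the lowest macrophage sum, 2729 against 15209 and 16175, and the lowest monocyte sum, 544 against 1545 and 1815. That replicate was also lowest in the cDC2 sum (14595 against 17972 and 19733) and the plasmacytoid DC sum (11264 against 14961 and 15067). The same held for the cDC1, mature DC, glial, neuronal, follicular dendritic cell and B cell sums. It did not hold for the T cell, fibroblast and pericyte, and thymic epithelium sums. Within immature thymic cDC1, replicate 1 had the highest Ngfr, equal to 6.39% of the immature thymic cDC2 mean, where the other 3 samples were at 1.73% to 2.27%. Of 17 other genes, the 7 cDC2 markers and the 10 genes most like Ngfr, 8 were highest in that same replicate, among them Aqp3 (1.90% against 0.791% to 0.937%), Irf4 (2.88% against 0.825% to 2.17%), Cd4 (21.7% against 8.67% to 15.7%) and Mgl2 (1.29% against 0.744% to 1.07%), and 9 were not, among them Sirpa (1.70% against 1.13% to 1.73%) and Cd209a (0.531% against 0.285% to 0.823%). The 10 genes most like Ngfr were picked by their correlation with it over samples that include this replicate. Their part of the count is therefore not independent of the Ngfr value. How many of all genes were highest in this replicate was not counted, so these numbers are a description only. The summed cDC2 markers of immature thymic cDC1 replicate 1 were 1095, next to 1020 in replicate 2 and 646 and 806 in the others.

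The neurotrophin system around the receptor was followed through 7 lists of 66 genes, all of which are in the tables and 44 of which had enough reads to be tested. The ligand genes Bdnf, Ntf3 and Ntf5 were too low to test. Bdnf and Ntf3 had no read in any sample, and Ntf5 had at most 9. The Trk receptor genes Ntrk2 and Ntrk3 were too low as well, with at most 2 and 19 reads in a sample.

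Between immature thymic and splenic cDC2, 2 of the 44 tested genes were higher and 4 lower in the thymus at an adjusted p below 0.1 and over 2-fold (limma, Benjamini-Hochberg over all 14970 genes tested). These 6 genes are 13.6% of the list, beside 14.2% of all genes called in this comparison, 8.30% higher and 5.87% lower. The list's median log2 fold change was -0.06, and that of all genes tested was 0.02. Sort1, which encodes sortilin, the partner of p75NTR for proneurotrophins, was lower in the thymus: splenic cDC2 had 1991, 2334 and 2477 normalized reads and thymic cDC2 had 513, 676 and 601. The groups were far apart, with a log2 fold change of -1.93 ± 0.14 (SE) and an adjusted p of 3.007e-09.

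Sorl1, a second receptor of the sortilin family, was lower as well (-1.47 ± 0.16, adjusted p = 1.62e-06, limma), at a mean of 3533 in thymic and 9857 in splenic cDC2. Of the genes that process neurotrophins or control that step, Mmp9, a gelatinase able to degrade a mature neurotrophin, was at 171 to 248 normalized reads in the splenic and at 0 to 6.23 in the thymic samples (adjusted p = 1.224e-04, limma), and Serpini1, the tissue plasminogen activator inhibitor neuroserpin, differed by -2.06 ± 0.44 (adjusted p = 0.00197, limma). Among the death-domain receptors, the relatives of p75NTR in structure, Fas was higher in the thymus, at 159, 166 and 173 normalized reads against 54.9, 41.2 and 48.9 in the spleen (log2 fold change 1.77 ± 0.27, adjusted p = 7.315e-05, limma). Tnfrsf10b, the mouse TRAIL receptor, was higher by 1.33 ± 0.46 (adjusted p = 0.046, limma), a call that was lost in edgeR and DESeq2 and without thymic cDC2 replicate 3 or splenic cDC2 replicate 3.

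None of the 18 cytosolic partners tested and none of the 9 cleavage genes passed in the thymus against spleen comparison. The sheddase genes Adam17 and Adam10 had means of 4219 and 3022 normalized reads in immature thymic cDC2, and the γ-secretase gene Ncstn had 2692. For Adam17 the splenic mean was 4365 and for Ncstn it was 2667. The adaptor gene Traf6 had means of 2382 in thymic and 2251 in splenic cDC2.

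Between mature and immature thymic cDC2, 14 of the 44 genes rose and 6 fell. These 20 genes are 45.5% of the list, beside 35.6% of all genes called, 18.6% higher and 17.0% lower. The list's median was 0.31 and that of all genes tested 0.04. Among the coreceptors, Sort1 rose from 513 to 676 normalized reads in the immature to 2759 to 2877 in the mature samples (log2 fold change 2.25 ± 0.14, adjusted p = 5.421e-11, limma). Kidins220, a membrane scaffold that binds p75NTR and the Trk receptors, rose by 1.16 ± 0.16 (adjusted p = 5.222e-06), and Rtn4rl1, a relative of the Nogo receptor, fell by 3.47 on the log2 scale (adjusted p = 0.0069), from 73.7, 70.3 and 93.5 normalized reads to 23.8, 13.9 and 0. Without the mature sample at 0, replicate 3, Rtn4rl1 fell by 2.05, and without mature replicate 1 by 4.36. Sorl1 had a mean of 3533 in immature and 2342 in mature cells and was not called.

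Of the 18 cytosolic partners tested, 5 rose and 2 fell. Traf6, an adaptor recruited by p75NTR on the way to NF-κB, rose from a mean of 2382 ± 203 to 8663 ± 1687 normalized reads (SD, n = 3 each), with an adjusted p of 1.836e-09 by limma. Traf2 rose by 1.52 ± 0.20, the polyubiquitin-binding scaffold gene Sqstm1 by 1.69 ± 0.30 and Maged1, whose product NRAGE binds the p75NTR tail, by 1.44 ± 0.29. Traf4 fell (-1.37 ± 0.41), as did Arhgdib (-1.69 ± 0.20), an inhibitor of small GTPases. Ptpn13, the phosphatase that docks on p75NTR and on Fas, went from a mean of 3.87 to 20.4 normalized reads (adjusted p = 0.061, limma), a call lost without immature replicate 2 or mature replicate 1 or 2. The other 11 partners did not pass, among them Rhoa, at means of 14310 and 14170.

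Of the 9 receptor cleavage genes, 1 rose and 1 fell, and both belong to γ-secretase: Psen2, a catalytic subunit, rose by 1.66 ± 0.22 and Aph1b fell (-1.22 ± 0.20). Of the 7 processing genes tested, 4 rose. Mmp7, which encodes matrilysin and can cleave proneurotrophins, had no read in any immature thymic cDC2 library and 210.4, 224 and 344 normalized reads in the mature samples, at least 55.5-fold higher against the floor of 3 reads a library. Plat, the tissue plasminogen activator, had means of 27.97 and 262 (log2 fold change 3.17 ± 0.81, adjusted p = 0.00288, limma) and Serpini1 rose by 2.28 ± 0.44. For Mmp9 the adjusted p was 0.083 at means of 2.97 and 13.6, and the call was lost without any 1 of 4 samples, immature replicates 1 and 2 and mature replicates 1 and 2.

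The 5 death-domain receptors tested went in both directions with maturation. Fas rose from 159 to 173 normalized reads to 2596, 3010 and 3369 (log2 fold change 4.16 ± 0.27, adjusted p = 1.858e-10, limma) and Tnfrsf10b by 1.83 ± 0.46. Tnfrsf1a, the main TNF receptor, fell from 2752, 2794 and 2587 to 547, 585 and 307 (-2.55 ± 0.24, adjusted p = 3.872e-08, limma), and Tnfrsf21, which encodes DR6, fell from a mean of 759 to 231 (-1.74 ± 0.26). Tnfrsf25 had means of 12.9 and 6.06 and was not called.

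Per kilobase of exon, Ngfr (279.8 normalized reads per kb) was the second most abundant of these death-domain receptors in immature thymic cDC2, after Tnfrsf1a (1046) and before Tnfrsf21 (184.7), Fas (80.5), Tnfrsf10b (8.79) and Tnfrsf25 (5.66). In splenic cDC2 the level of Ngfr per kb was 3.44 and that of Tnfrsf10b 4.08. In mature thymic cDC2 it was 9.19 beside 1451 for Fas. Sort1 per kb was 78.9 in immature thymic cDC2, below Ngfr, and 373 in mature thymic cDC2, far above it. These levels assume that the GENCODE exon length is the length transcribed.

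**Figure D2:**
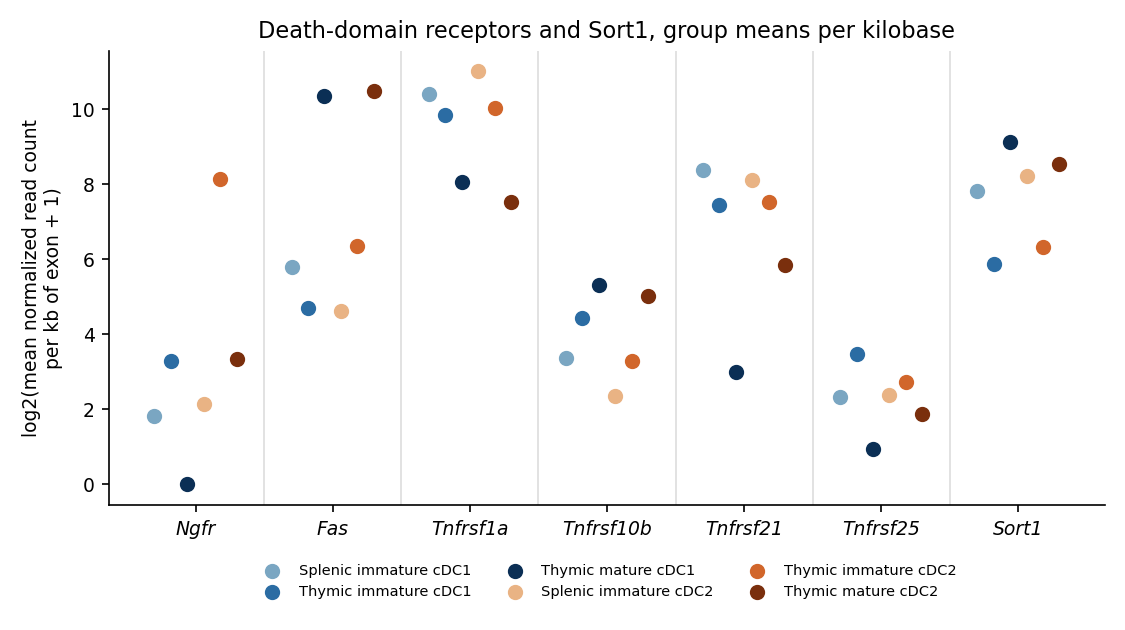
Group means of 6 death-domain receptors and of Sort1, as log2(mean normalized read count per kb of exon + 1), with 1 point for each of the 6 sorted populations and no error bars. Ngfr has a single high point, immature thymic cDC2 (279.8 per kb), while Fas is highest in the 2 mature groups and Tnfrsf1a lowest there.

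**Figure D3:**
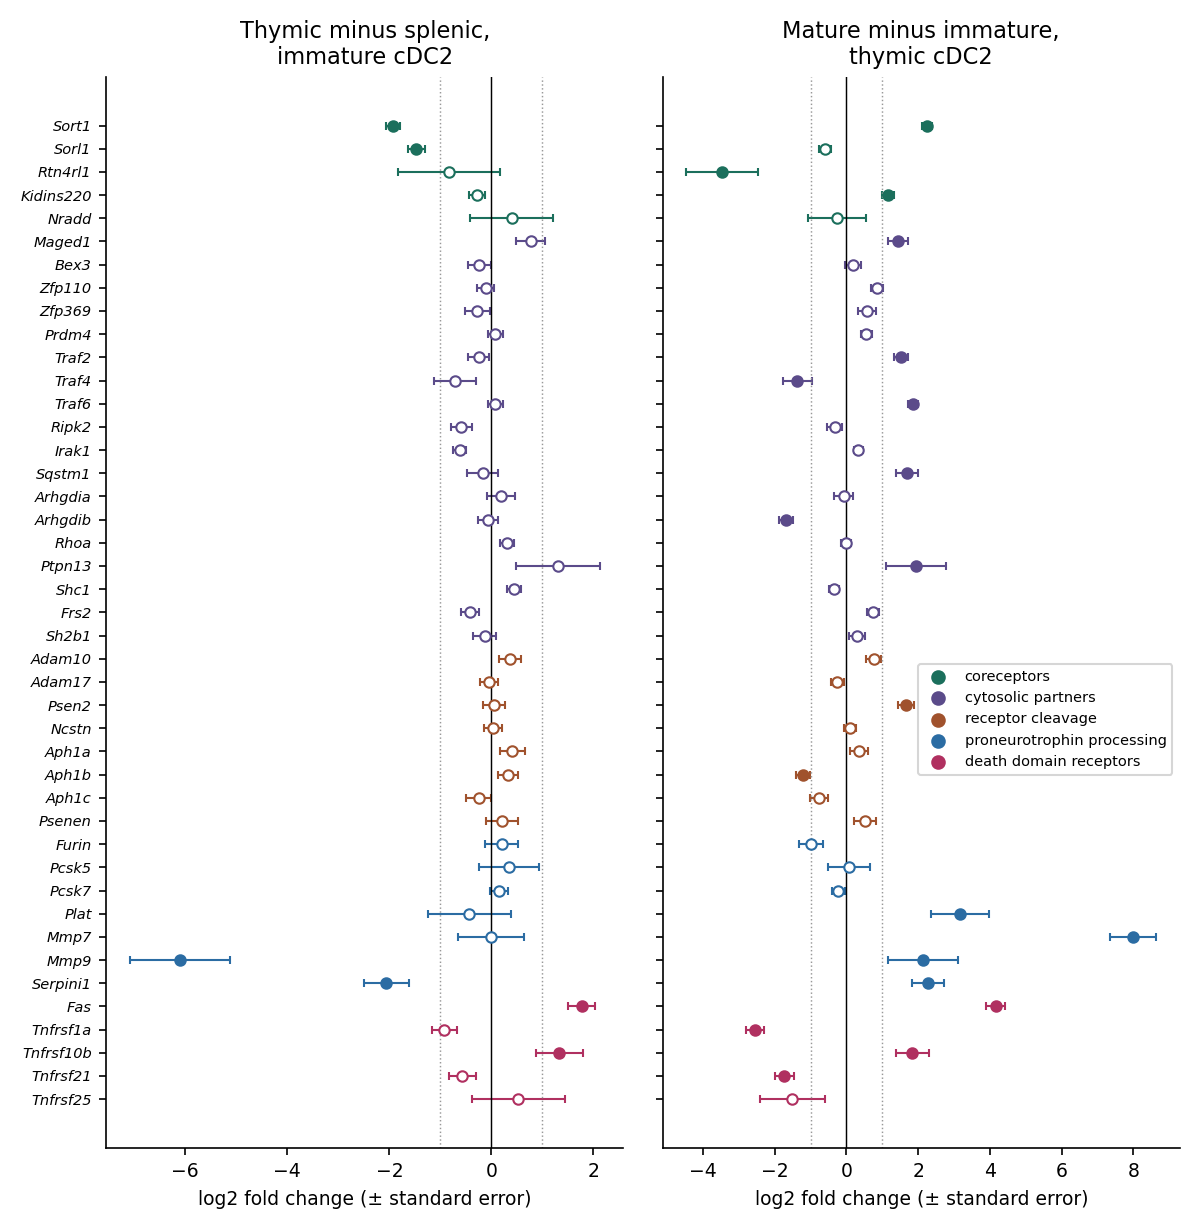
The limma log2 fold change (x axis, ± SE) of tested neurotrophin pathway genes (y axis, Bex3 is Ngfrap1 in the tables), coloured by role, for thymic minus splenic immature cDC2 and for mature minus immature thymic cDC2. Filled points passed the thresholds, 6 in the first panel and 20 in the second, and dotted lines mark a 2-fold change.

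Between the subsets, immature thymic cDC2 differed from immature thymic cDC1 in 6 of the 44 genes, 3 higher and 3 lower, or 13.6% beside 16.4% of all genes called (11.0% higher, 5.42% lower). Their median was 0.00 and that of all genes tested 0.01. Fas was higher in cDC2, at 159 to 173 normalized reads against 36.6 to 83.9 (1.73 ± 0.25, adjusted p = 2.581e-05, limma), as were Ripk2, a kinase that docks on the p75NTR death domain (1.23 ± 0.19), and Plat (2.74 ± 0.76, or 2.05 without thymic cDC1 replicate 4 and 3.36 without replicate 1). Psen2 (-1.04 ± 0.20), Pcsk5 (-1.68 ± 0.55) and Tnfrsf10b (-1.21 ± 0.43) were lower. These last 3 calls were all lost without thymic cDC2 replicate 2, which left 3 genes, Tnfrsf10b also without thymic cDC2 replicate 1 or thymic cDC1 replicate 2, Pcsk5 also without thymic cDC2 replicate 3 or thymic cDC1 replicate 2, and Psen2 also without thymic cDC1 replicate 3. Pcsk5 was at no more than 9.16 normalized reads in either group. Sort1 was not called, at means of 597 in cDC2 and 439 in cDC1.

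Between mature thymic cDC2 and cDC1, 4 of the 44 genes were higher in cDC2 and 2 lower, 13.6% beside 18.9% of all genes called (14.6% higher, 4.36% lower). The list's median was -0.02 and that of all genes tested 0.14. Tnfrsf21 was higher in cDC2, with means of 231 against 28.5 (3.03 ± 0.26, adjusted p = 8.597e-08, limma). Pcsk5, a proprotein convertase, had a mean of 52.1 in mature cDC1 and of 0.46 in mature cDC2 (adjusted p = 1.996e-06, limma). Serpini1 was higher by 1.60 ± 0.44, Zfp369, whose product NRIF2 binds the p75NTR tail, by 1.10 ± 0.25, and Nradd, a death-domain homolog of p75NTR, by 3.19 ± 0.81. Nradd had 37.6, 24.4 and 18.8 normalized reads in mature cDC2 and 0, 0 and 24.8 in mature cDC1, and its log2 fold change was 1.48 in edgeR and 1.45 in DESeq2, 2.40 without mature cDC1 replicate 1 or 2, and 4.75 without replicate 3. The call for Zfp369 was lost without mature cDC1 replicate 2, when its change stood just under 2-fold, and that for Nradd in edgeR and DESeq2. Plat was lower in mature cDC2 (-2.21 ± 0.81, adjusted p = 0.054, limma), at means of 262 and 1155, a call lost without mature cDC2 replicate 1 or mature cDC1 replicate 2.

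The genes most like Ngfr in pattern were found by Pearson's r of log2(value + 1) over the 20 samples, among the 11280 tested genes with a mean of at least 100 in some group. The median r was 0.03, the 99th percentile was 0.78, and 11 genes exceeded 0.9. Since the 20 samples form 6 groups, r describes mostly how the group means line up. The 10 most alike were Cd209e (r = 0.944), S100a10 (0.936), Gm8113 (0.927), Fam129b (0.925), Aqp3 (0.919), Ms4a6d (0.917), Cdh1 (0.915), Cd209d (0.914), Rcan3 (0.911) and Rab3il1 (0.908). After the group means were removed, r ranged from -0.07 for Gm8113 to 0.50 for Aqp3.

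Cd209e and Cd209d encode C-type lectins of the DC-SIGN family. Cd209e had 4017, 5354 and 5000 normalized reads in immature thymic cDC2, against 8.15 to 34.8 in splenic cDC2 and 51.8 to 132 in mature thymic cDC2. Cd209d had a mean of 4553 in immature thymic cDC2 and of 127 and 131 in the same 2 groups. The Cd209 genes are close copies, so that reads may be split among them.

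Cdh1, the epithelial cadherin, had a mean of 10048 normalized reads in immature thymic cDC2, 253-fold that of splenic cDC2 and 54.0-fold that of mature thymic cDC2. Aqp3, a water and glycerol channel, had a mean of 2045 and at most 38.9 in any sample outside the group, which was also replicate 1 of immature thymic cDC1. Ms4a6d, a member of the family of CD20, reached 6257, 39.6-fold its splenic cDC2 mean. Rcan3, a regulator of calcineurin, shared the order of the groups but not the size of the steps, with a mean of 704 that was 2.01-fold that of splenic cDC2 and 1.41-fold that of mature thymic cDC2. S100a10, the partner of annexin A2, lay in between, at 5.34-fold and 5.43-fold.

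**Figure D4:**
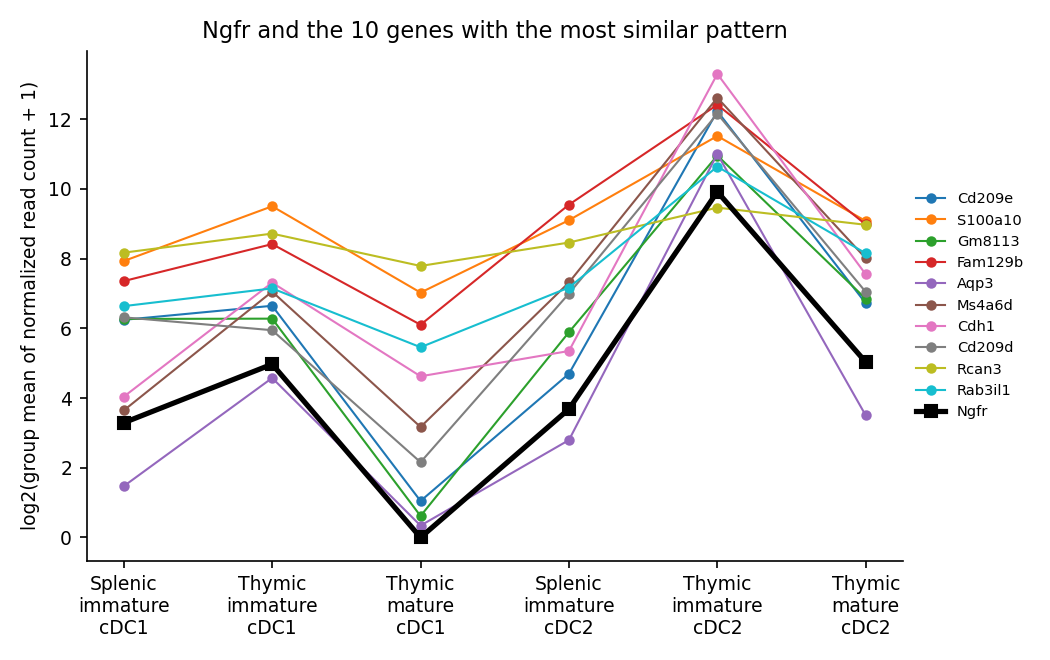
Group means of Ngfr (black squares) and of the 10 genes with the highest Pearson's r with it over 20 samples, as log2(group mean of normalized read count + 1), across the 6 sorted populations; lines join the groups only to guide the eye. All 11 genes peak in immature thymic cDC2, and 9 of the 10 lie above Ngfr in it, with Rcan3 below it.

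Of all 14970 genes tested, 523 (3.49%) had their lowest immature thymic cDC2 value above every sample of the other 5 groups. By the ratio of that lowest value to the highest other sample, each plus 1, Ngfr ranked 11 with 13.1, and 13 genes exceeded 10. Of the 10 most alike genes, Cdh1 (46.0), Aqp3 (44.7), Cd209e (30.3), Cd209d (19.6), Ms4a6d (14.3) and Gm8113 (10.8) were among these 13.

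Of these protein-coding genes on either side of Ngfr, none had its highest group mean in immature thymic cDC2. The nearest, Nxph3, starts or ends 54248 bp away and had group means of at most 2.46 normalized reads. The next are Spop, a ubiquitin ligase adaptor, at 75412 bp, and Phb, which encodes prohibitin, at 79222 bp. Of the 10 neighbours, 7 were tested. In immature cDC2 none was higher in the thymus than in the spleen, where 8.30% of all genes were, and Fam117a (-1.14 ± 0.46) and Abi3 (-1.09 ± 0.37) were lower. Both of these calls were lost without splenic cDC2 replicate 1 or 3 or thymic cDC2 replicate 2 or 3, and that of Fam117a also without thymic cDC2 replicate 1. With maturation of thymic cDC2, Fam117a (-2.30 ± 0.46), Slc35b1 (-1.49 ± 0.17), Phb (-1.67 ± 0.25) and Zfp652 (-1.31 ± 0.17) fell, as Ngfr did, Spop rose (1.25 ± 0.16), and Kat7 and Abi3 did not pass. Of all genes, 17.0% fell and 18.6% rose with maturation, and 5.87% were lower in the thymus than in the spleen. With 7 genes tested, the counts of neighbours are too small to be read against these shares.

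Between the immature thymic subsets, Abi3 was higher in cDC2 (1.82 ± 0.35, adjusted p = 5.087e-04, limma) and no other neighbour was called. Of all genes, 16.4% were called there and 18.9% between the mature subsets. Between the mature subsets, Fam117a (1.84 ± 0.46) and Phb (1.16 ± 0.25) were higher in cDC2, the call for Phb being lost without mature cDC2 replicate 2 and the value for Fam117a being 1.17 without mature cDC1 replicate 2 and 2.53 without replicate 1. Zfp652 overlaps B130006D01Rik, Phospho1 and Abi3 in the annotation, and whether reads were counted by strand is not given in the sources used here, so that the values of those 4 genes are uncertain.

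**Figure D5:**
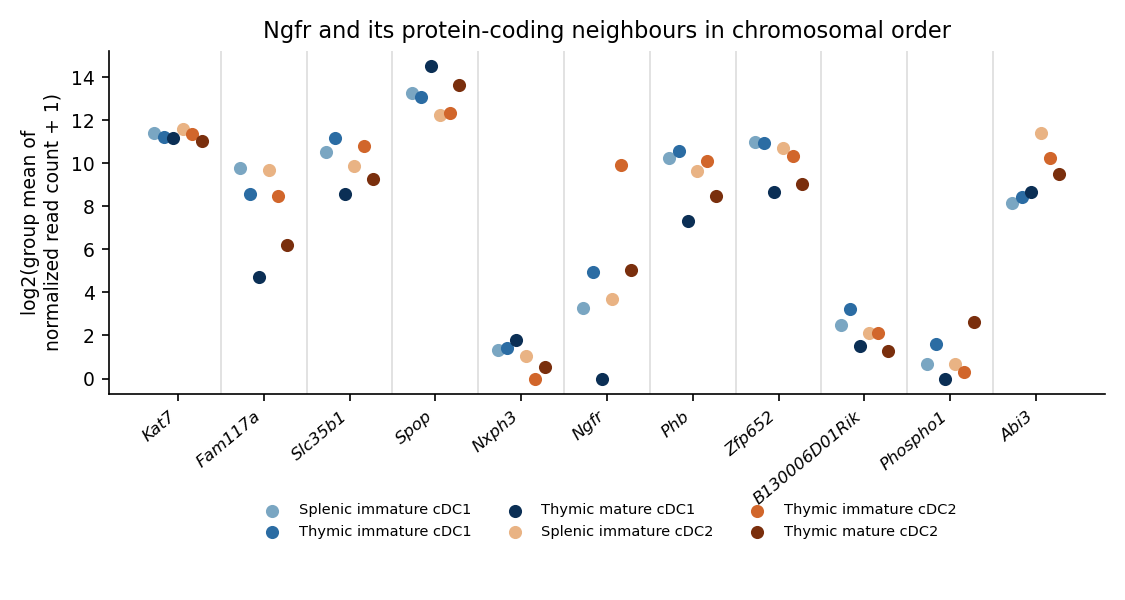
Group means of Ngfr and of the 5 nearest protein-coding genes on each side, in chromosomal order along the x axis (not to scale), as log2(group mean of normalized read count + 1), with 1 point for each sorted population and no error bars. Ngfr alone has a single high point in immature thymic cDC2, and Nxph3, B130006D01Rik and Phospho1 have means below 10 in all groups.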

How the data were processed

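RNA-seq libraries of sorted cDCs were prepared with a stranded mRNA kit by the authors, who trimmed the reads, aligned them to mm10 with STAR 2.6 and used HTSeq-count on Ensembl genes. The Ensembl release and the strand setting are not given in the sources used here. The deposited signal is the count of each gene divided by the library's DESeq2 1.24.0 size factor (normalized read count). Since 1 read has a fixed value in each library, read counts were recovered from the deposited values, and 100% of values came out whole (tolerance 0.01 reads). Values depend on the size factors, which assume that most genes do not differ between populations.

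Groups followed the labels. Ngfr was chosen for its values, and the members and gene lists were chosen with earlier results of these data known. Genes with at least 10 normalized reads in at least 3 of 20 samples (14970) were fitted with limma 3.58.1 (R 4.3.3) on log2(value + 1) over the 6 groups, and a gene was called at over 2-fold with an adjusted p (Benjamini-Hochberg) below 0.1. On this scale the fold change of a low gene depends on the pseudocount: it is understated where values are near 1, and where single samples are at 0 it can exceed the ratio of the group means. The script was tested on simulated data. edgeR 4.0.16 and DESeq2 1.42.0 on the recovered reads, other pseudocounts, filters and scalings, lane, pool number, and leaving out each sample were alternatives. Named genes were Ngfr, the listed pathway and marker genes, the 10 genes with the highest r with Ngfr and its 5 nearest protein-coding neighbours on each side. A few genes of these lists are not reported here. Neither the labels nor the files say which animals went into a pool, and 2 samples of immature thymic cDC1, and 2 of splenic cDC1, share a pool label, so p-values measure only the spread between these samples. Same-numbered pools did not deviate together throughout: of 12 same-pool pairs of samples across groups, 5 had a correlation of deviations over 0.1, from -0.15 to 0.461.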

Additional observations from a re-analysis of the deposited data

Results flagged for a closer look

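In groups of 4 samples, a sample was singled out where its gap to the nearest other sample was over 0.829 of the group's range (Dixon's 95% value). Over 72 sets of 4 samples from 36 genes, 10 such samples were found, and chance gives about 1 in 20 sets. Ngfr itself was 1 of them: immature thymic cDC1 replicate 1 had 61.7 normalized reads, with 16.7 to 21.8 in the other 3 samples. Aqp3 had 38.9 in the same sample against 16.2 to 19.2. In immature thymic cDC1, S100a10 had 1109.5 in replicate 3, against 552 to 629, and Pcsk5 had 9.16 in replicate 2, against 1.56 to 2.53.

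The other 6 came from splenic cDC1. Replicate 3 was high in Traf2 (898 normalized reads against 637 to 659.8), Traf4 (862 against 361 to 402), Psen2 (465 against 331 to 354) and Tnfrsf1a (4695 against 3030 to 3220). Replicate 1 was low in Maged1 (83.4 against 131 to 134) and had 4.12 in Mmp7, where the other 3 samples were at 0. Splenic cDC1 enters none of the tested comparisons except through the shared estimate of the spread.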

How the results depend on the processing

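No direction of a called result was reversed under any alternative. Of 48 gene results, 35 passed the thresholds in every alternative in which they were tested, and the other 13 are named with the samples or tools that decide them where they are given above, except that Fam117a also lost its call between tissues with no filter on low values and with a pseudocount of 0.1, Fam117a and Nradd between mature subsets and Tnfrsf10b between tissues with only the groups compared, Mmp9 with no filter, pseudocounts of 0.1 and 8 and lane as a covariate, Ptpn13 and Plat (mature subsets) with a pseudocount of 0.1, and Pcsk5 (immature subsets) with one of 8. In the order thymus against spleen, maturation, immature subsets and mature subsets, 6, 20, 6 and 6 list genes were called. With a value of at least 10 asked in every sample, which tests fewer genes, these were 3, 13, 3 and 2, and with no fold threshold 11, 31, 15 and 13. Leaving out 1 sample gave 5 to 7, 18 to 21, 3 to 6 and 5 to 8.

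For Ngfr, leaving out 1 sample gave log2 differences of 6.04 to 6.63 between tissues, -5.17 to -4.64 with maturation and 4.90 to 5.51 between immature subsets (5.11 with all samples), and a bound of 4.69-fold to 6.75-fold for mature cDC2 over cDC1. In CPM the difference between tissues was 4.88, since splenic cDC2 values (0.338 to 0.773) were then below the pseudocount of 1. With pool number as a replicate block, the Ngfr differences were 6.29, -4.92 and 5.11 and the list counts 6, 21, 6 and 6, so the block moved no list count by over 1.5 times; 4 of the 7 immature thymic samples correlated best with their own pool number across subsets. Of the 10 genes most like Ngfr, 5 remained by Spearman's rank correlation and 5 with a pseudocount of 8, and all 10 with TMM scaling, alternatives chosen after seeing the data. At the depths here, Ngfr in splenic cells and mature cDC1 rests on 0 to 20 reads a library.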

Other observations

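Besides Ngfr and the 6 genes of its pattern described above, 6 other genes had a lowest immature thymic cDC2 value over 10 times the highest sample elsewhere (each plus 1), and they were named after their values were seen. Mgl2, the C-type lectin CD301b, had at least 17220 normalized reads in immature thymic cDC2 and at most 602 in any other sample. Dab2, an endocytic adaptor, had at least 7888 against at most 593. The chemokine receptor gene Cxcr2 had at least 638 against at most 22.0. Susd4, a complement regulator, had at least 159 against at most 9.09. Entpd3, an ectonucleotidase, had at least 105 against at most 9.29, and 1600029D21Rik at least 3372 against at most 228.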
